A study of Oryza sativa with 4 samples.

Results

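RNA-dependent RNA polymerases copy single-stranded RNA into double-stranded RNA, which Dicer-like enzymes then cut into small interfering RNAs that guide Argonaute proteins. In plants, the RDR2 type acts in RNA-directed DNA methylation, where it works with RNA polymerase IV. The RDR6 type acts with the protein SGS3 to make trans-acting and other secondary small interfering RNAs, and the RDR1 type is known for its part in defence against viruses. OsRDR3 and OsRDR4 belong to a further clade whose function is less well known. The genes described here are the 5 rice genes OsRDR2 (LOC_Os04g39160), OsRDR1 (LOC_Os02g50330), OsRDR6 (LOC_Os01g34350), OsRDR3 (LOC_Os01g10130) and OsRDR4 (LOC_Os01g10140), of 55777 rice locus IDs in the deposited table. They were taken by locus ID, and all 5 were found, in 4 rows, because OsRDR3 and OsRDR4 share 1 row.

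The series concerns CHH methylation (at cytosines outside the CG and CHG contexts) and sexual reproduction in rice. Its samples are young panicles, the developing inflorescence, of soil-grown japonica rice: 2 control samples titled Nip and 2 of osrdr2-3, labelled as a DES1 mutant. Values of 2 control libraries, read as the 2 Nip samples from their names and numbers, are given here, so no genotype comparison was made, and the osrdr2-3 samples were not analysed here. The labels do not say whether the Nip samples came from separate plants, so the spread between them may be technical. Levels are FPKM, the fragments per kilobase of transcript, scaled to library size, that the authors estimated per gene, a scale on which genes of different length can be set side by side. Floral identity genes, fixed as markers of the labelled tissue, ranged from 113.0 to 1686 FPKM over 4 paired of 6 listed genes and both libraries. For 3 genes of green tissue the range was 57.2 to 357 FPKM. The highest floral value was that of OsMADS1, whose row spanned 66014 bases against 8618 in the RefSeq gene table. Whether other transcripts add to it was not tested.

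All 4 rows were expressed in both Nip libraries, and OsRDR2 was the most abundant. Its level was 13.8 FPKM in replicate 1 against 12.8 FPKM in replicate 2, averaging 13.3 ± 0.679 (SD, n = 2). The shared row of OsRDR3 and OsRDR4 followed at 9.02 and 10.5 FPKM, a mean of 9.75 ± 1.03 (SD, n = 2). OsRDR1 was at 6.16 and 6.49 FPKM, a mean of 6.33 ± 0.231 (SD, n = 2). The lowest of the 4 rows was OsRDR6, at 5.66 and 5.60 FPKM, a mean of 5.63 ± 0.0393 (SD, n = 2). OsRDR6 is also known as SHOOTLESS2 for the loss of the shoot meristem in its mutants. The order was the same in both libraries, and in each of the 6 pairs of rows the values did not overlap. The share of all pairs of rows at this level without overlap was not computed. With 2 values a row, the lack of overlap says little about these genes. The 4 rows lay above 73.3% (OsRDR6) to 81.7% (OsRDR2) of the 55208 rows with a locus ID. Each reached 5 FPKM in both libraries. OsRDR2 alone reached 10 FPKM in both, and the shared row did so in replicate 2 only. Over all 57143 rows of the table, 38.2% were at or above 1 FPKM in both libraries and 20.4% at or above 10 FPKM. At or above 5 FPKM in both were 15324 of the 57143 rows.

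**Figure D1:**
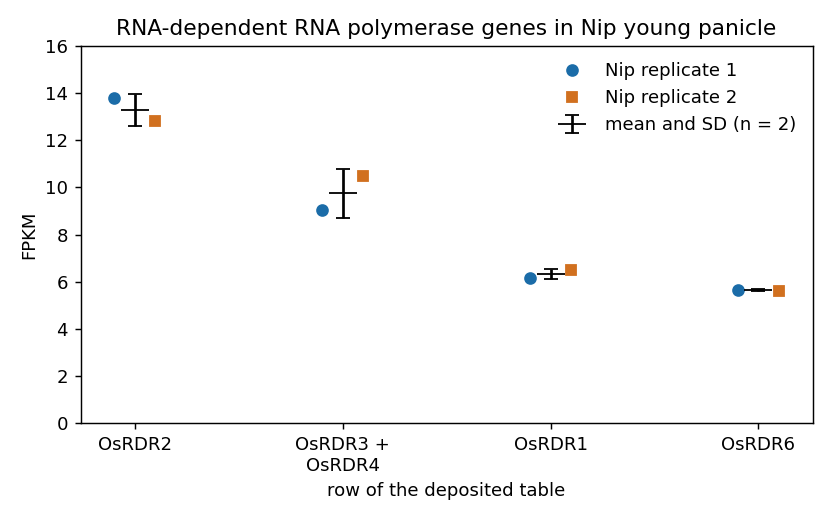
FPKM (vertical axis) of the 4 rows that hold the RNA-dependent RNA polymerase genes in the 2 Nip libraries, with the mean and SD as bars (n = 2). OsRDR2 was the highest in both libraries and OsRDR6 the lowest.

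OsRDR2 was 2.24 times as abundant as OsRDR1 in replicate 1 and 1.98 times in replicate 2. Against OsRDR6 the ratio was 2.44 and 2.29. OsRDR2 thus stood further above OsRDR1 and OsRDR6 than above the shared row, where the ratio was 1.53 in replicate 1 and 1.22 in replicate 2. Of the FPKM summed over the 4 rows, 34.6 in replicate 1 and 35.4 in replicate 2, OsRDR2 held 39.8% and 36.2%. The shared row, with 2 locus IDs together, held 26.1% and 29.6%, OsRDR1 17.8% and 18.3%, and OsRDR6 16.3% and 15.8%. With 1 pair of libraries from 1 group these ratios were not tested.

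How the smallest step in the order, from OsRDR1 to OsRDR6, compared with counting error depended on the transcript length assumed. The table gives no counts, but its low values show that 1 FPKM over 1 kb of transcript rested on about 24.4 fragments in replicate 1 and 22.2 in replicate 2 as a rough estimate. Transcript lengths of the 4 rows are not in the table. A length of 1 kb was therefore taken as a low setting, not as an estimate, and the row's span as a high one. At a length of 1 kb, OsRDR2 would rest on 336 and 285 fragments and OsRDR6 on 138 and 125, and longer transcripts on more. OsRDR1 exceeded OsRDR6 by 0.12 on the log2 scale in replicate 1 and by 0.21 in replicate 2. The counting SD of this ratio would be 0.17 and 0.18 at a length of 1 kb, and 0.07 in both libraries if each transcript were as long as its row's span. At the shorter length the step was thus under 1 counting SD in replicate 1 and just over 1 in replicate 2. With the spans as lengths it exceeded the counting SD in both libraries. The values of OsRDR1 and OsRDR6 did not overlap, which with 2 values each says little. The step from OsRDR2 to the shared row was 0.61 and 0.29 on the log2 scale, against a counting SD of 0.13 in both libraries at 1 kb.

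The libraries differed little for OsRDR6 and most for the shared row. On the log2(FPKM + 1) scale, replicate 1 exceeded replicate 2 by 0.10 for OsRDR2 and by 0.01 for OsRDR6. For OsRDR1 and the shared row the difference, replicate 1 minus replicate 2, was -0.06 and -0.20. OsRDR2 and the shared row therefore lay closer together in replicate 2, with opposite signs of their differences. The 8014 rows with a mean of 5 to 20 FPKM, the level of all 4 rows, had a median absolute difference of 0.08. Of these, 15.6% differed by more than the shared row did, 42.2% by more than OsRDR2, 58.8% by more than OsRDR1 and 91.7% by more than OsRDR6. The difference of the shared row was thus over the median of rows of its level but below their 90th percentile, 0.24.

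**Figure D2:**
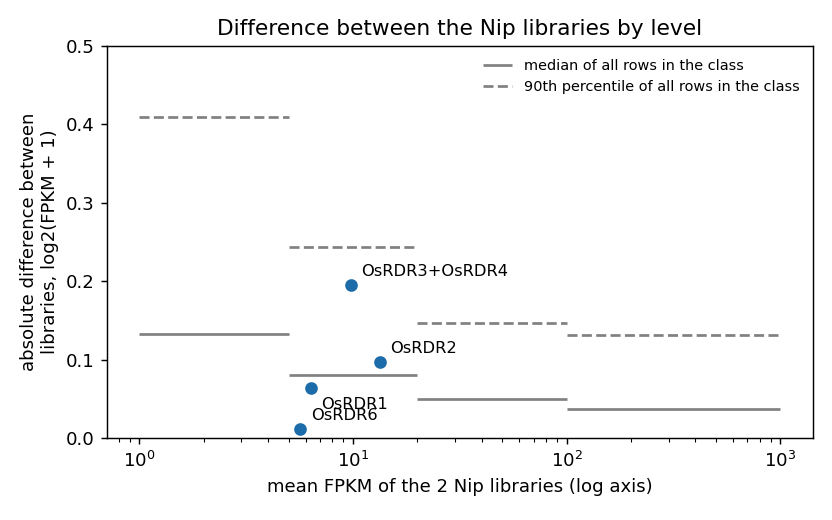
Absolute difference between the Nip libraries on the log2(FPKM + 1) scale (vertical axis) against the mean FPKM (horizontal log axis) for the 4 polymerase rows, with the median (solid) and 90th percentile (dashed) of all rows in each level class. The shared row of OsRDR3 and OsRDR4 had the largest difference of the 4, 0.20, and lay under the 90th percentile of its class.

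OsRDR3 and OsRDR4 could not be separated. Their row covered 36580 bases of chromosome 1, from 5288023 to 5324602. These and the coordinates below are the deposited ones, whose genome build no source used here states. Of the rows with a locus ID, 1225 (2.22%) carried several IDs as this one does. In the RefSeq gene table of rice (assembly ASM3414082v1), OsRDR4 has a gene model of 17067 bases. Next to it lies a model of 14416 bases without a symbol (LOC4327335), and 5025 bases separate them. Together they span 36508 bases, close to the length of the deposited row, and the next model on that side is that of the cytokinin oxidase gene OsCKX2, known as Gn1a for its effect on grain number. The table's value may thus hold fragments of 2 neighbouring genes, and how they divide between OsRDR3 and OsRDR4 was not tested. The order, shares, medians and counts given for the polymerases are therefore those of rows. OsRDR3 or OsRDR4 alone may lie lower than their shared row, also below OsRDR1 or OsRDR6.

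The other 3 rows held 1 locus ID each. OsRDR2 lay on chromosome 4 from 23284654 to 23290538, a span of 5885 bases, and its RefSeq model is 5848 bases long. OsRDR6 lay on chromosome 1 from 18940387 to 18945666, with a span of 5280 bases against 5279 in RefSeq, which lists it as SHL2. OsRDR1 lay on chromosome 2 from 30729062 to 30736662, a span of 7601 bases. RefSeq gives no symbol that pairs with the IDs of OsRDR1 and OsRDR3, so both names rest on prior knowledge of the IDs.

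No other row overlapped the 4 polymerase rows, but OsRDR1 had a very close neighbour. LOC_Os02g50340, at 2.93 and 3.11 FPKM, began 23 bases after the end of OsRDR1. Of the 55196 pairs of adjacent rows on the 12 chromosomes, 9.94% overlapped or lay under 100 bases apart. Most of these, 8.94% of all pairs, overlapped, unlike OsRDR1 and this neighbour. The protocols name no strand-marking step, so fragments that cross the boundary between these rows may not be assigned to 1 of them, and the size of this was not tested. On its other side, OsRDR1 was 2601 bases from LOC_Os02g50320, at 16.1 and 16.7 FPKM.

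The surroundings of OsRDR2 held rows both far above and below its own level. LOC_Os04g39150, at 661 and 642 FPKM, ended 5155 bases before OsRDR2. After OsRDR2, 650 bases away, lay 2 rows of the same span, LOC_Os04g39170 at 5.47 and 4.85 FPKM and LOC_Os04g39180 at 0.0364 and 0.0388 FPKM. The table thus gave OsRDR2 a level between those of the rows beside it, with no overlap in position.

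OsRDR6 and the shared row each had a silent neighbour on 1 side. Rows at 0 in both libraries were common, 24586 of all 57143. LOC_Os01g34360, 1684 bases after OsRDR6, was listed at 0 in both libraries, whereas LOC_Os01g34330, 1107 bases before it, was at 35.2 and 33.1 FPKM. LOC_Os01g10120, 6517 bases before the shared row, was listed at 0 in both libraries, and LOC_Os01g10150, 4214 bases after it, was at 59.1 and 58.7 FPKM. The files do not pair these neighbouring IDs with names.

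**Figure D3:**
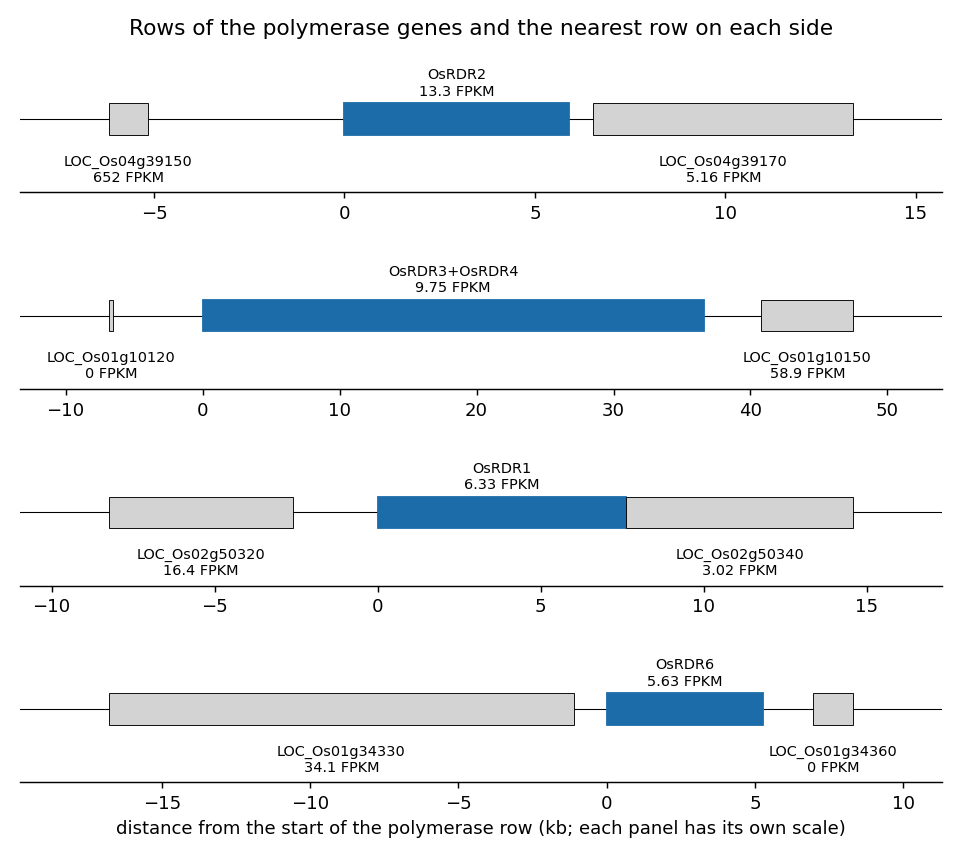
Spans of the 4 polymerase rows (blue) and of the nearest row with a locus ID on each side (grey), by distance from the start of the polymerase row in kb, each panel on its own scale, with mean FPKM over the 2 Nip libraries. OsRDR1 nearly touches LOC_Os02g50340 at 23 bases, and the shared row of OsRDR3 and OsRDR4 is the longest of the 4 at 36580 bases.

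Set against genes that act with the polymerases, OsRDR2 lay below 14 of 22 listed partner genes in both libraries. Of the 22, 12 could be paired with their symbol in RefSeq, and these are named below. Their medians were 28.5 FPKM (replicate 1) and 28.9 FPKM (replicate 2), against 7.59 and 8.48 FPKM over the 4 polymerase rows and 0.0939 and 0.0910 FPKM over all rows. Of the 12 partners, 9 exceeded OsRDR2 in both libraries, and 2 lay below every polymerase row. The 10 partners without a paired symbol were lower as a group, with medians of 15.6 and 15.5 FPKM. Of these 10, 5 exceeded OsRDR2 in both libraries and 3 lay below every polymerase row, so the named partners show the polymerases lower in the list than all 22 do. Over the 22, the medians were 20.2 and 20.1 FPKM and 5 lay below every polymerase row. Among the 9 named partners above OsRDR2, the grass Argonaute OsAGO18 exceeded it by little, at 13.88 and 13.01 FPKM. No test was made of the list.

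In RNA-directed DNA methylation, the Argonaute OsAGO4a, which binds the small interfering RNAs, was 12.6 times OsRDR2 in replicate 1 and 13.3 times in replicate 2. The methyltransferase OsDRM2, which the pathway directs to DNA, was 1.63 and 1.67 times OsRDR2. OsRDR2 was thus lower than both of these paired genes in both libraries, which does not place it within the whole pathway. Listed IDs of the pathway without a paired symbol, whose roles rest on prior knowledge, lay on both sides of OsRDR2. Below it in both libraries were LOC_Os04g48370 and LOC_Os09g38268, listed for RNA polymerase IV, and LOC_Os02g43460. Also below it was LOC_Os10g34430, listed as a Dicer-like gene, whose place in this pathway was not tested. Above it were LOC_Os02g05880, LOC_Os04g06770 and LOC_Os07g16224. LOC_Os01g68120 was below OsRDR2 in replicate 1 and above it in replicate 2.

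In the pathway of trans-acting small interfering RNAs, OsRDR6 was below 2 of its paired partners and above the third. OsSGS3, the cofactor of the RDR6 type, reached 62.8 FPKM (replicate 1) and 62.0 FPKM (replicate 2), or 11.1 times OsRDR6 in each. OsDCL4, the Dicer-like enzyme that cuts the products of RDR6, was 5.52 and 5.70 times OsRDR6. OsAGO7, the Argonaute that with a microRNA starts this pathway, was at 0.138 and 0.0910 FPKM, and OsRDR6 exceeded it by 41.0 and 61.6 times. Values this low rest on few fragments, so the ratio to OsAGO7 is imprecise.

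The remaining partners lay on both sides of the polymerases. OsDCL2a, at 9.88 and 9.58 FPKM, was the nearest to the shared row of OsRDR3 and OsRDR4, and the values of the 2 rows overlapped. OsRDR2 exceeded OsDCL2a 1.395 and 1.338 times. MEL1, a germ-line Argonaute, was lower than each polymerase row, and OsRDR6 exceeded it 2.79 and 2.85 times. The OsAGO1 Argonautes of the microRNA pathway were all above OsRDR2, from 1.86 and 2.02 times for OsAGO1c to 7.52 and 8.07 times for OsAGO1b, with OsAGO1d and OsAGO1a between them. The OsAGO1c row spanned 13480 bases against 7268 in RefSeq, and whether other transcripts add to its value was not tested.

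**Figure D4:**
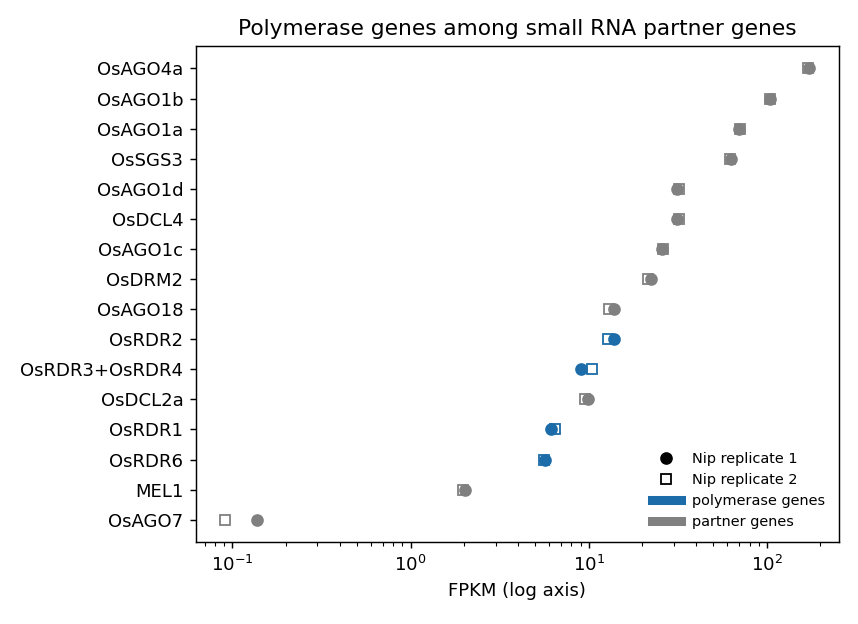
FPKM on a log axis of the 4 polymerase rows (blue) and 12 paired partner genes (grey) in Nip replicate 1 (filled circles) and replicate 2 (open squares), ordered by mean. The polymerase rows lie near the low end, with OsDCL2a between the shared row and OsRDR1, MEL1 and OsAGO7 below them and 9 partners above OsRDR2.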

How the data were processed

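The authors deposited 1 table of FPKM values per gene for pairs of libraries, per the file headers. The submitters' processing notes list TopHat, with no version. Estimator, genome build and annotation were not given in the sources used here. Library names ck1 and ck2 were read as Nip replicates 1 and 2, taking ck as control. The table holds 3 control names (ck1, ck2, ck3) for 2 Nip samples, so this reading rests on the numbers in the names and is not certain. The other 4 library names, ck3 and 3 names starting with des for 2 osrdr2-3 samples, could not be tied to single samples and were not used. The des names point to the DES1 mutant group. The planned limma comparison of the genotypes required names matched to the labelled samples, so it was not made. Members, partner list and markers were chosen with earlier results of these data known. All 5 members, every paired partner and the nearest row on each side are named. No likeness of pattern was computed, since that needed at least 6 libraries.

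Means and SDs over 2 libraries were computed in Python 3.11.15 with pandas 2.3.3 and numpy 2.4.6, and differences with a pseudocount of 1. A symbol was paired with an ID where RefSeq had it on the same chromosome within 5 Mb, and either the lengths agreed within 10% or the offset lay within 250 kb of that of another listed gene. This rule was set with the table known. Depth was read from rows of 1200 to 3000 bases as the lowest well-filled step of FPKM times span. The step assumes that some rows have no intron and covers counting error only. It was tested on simulated data built with such rows, which cannot show that the deposited rows meet the assumption. The bin it was read from held 16 rows in replicate 1 and 33 in replicate 2.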

Additional observations from a re-analysis of the deposited data

How the results depend on the processing

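Median-ratio scaling, leaving out either library and, for the differences between libraries, a pseudocount of 0.1 moved no polymerase value by more than the spread between libraries and turned no sign. With 2 libraries, leaving 1 out cannot move a mean by more than its SD, and the libraries were nearly equal in scale, so these settings say little about stability. Rescaled to sum to 1000000 per library, the means were 18.3 for OsRDR2, 13.5 for the shared row, 8.73 for OsRDR1 and 7.77 for OsRDR6. They were larger because the FPKM of each library sums to less than that. The order could not change, since the same factor multiplies every row of a library, so this setting is no check of it. Of the 12 paired partners, 11 reached 1 FPKM in both libraries, 11 reached 0.5 FPKM and 10 reached 5 FPKM. Over all 22 listed IDs, paired or not, an alternative chosen after seeing the data, 21 reached 1 FPKM. No paired analysis was possible because the pairing needs both genotypes and 1 was analysed, and for the same reason the settings planned for the genotype comparison were not run. Depth may limit the step from OsRDR1 to OsRDR6 if the transcripts are as short as 1 kb, a low setting and not an estimate. Against counting SDs of 0.17 and 0.18 on the log2 scale at 1 kb, that step was 0.12 and 0.21, and with the spans as lengths the SDs were 0.07 in both libraries.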
